A study of Mus musculus with 6 samples.

Results

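Cav1, Cav2, Met and Cftr are 4 protein-coding genes that lie on the plus strand of mouse chromosome 6 in a single neighbourhood. They were taken by gene name, as 4 of the 53546 rows in each deposited count table, with earlier results of these data known. The study sequenced RNA from C57BL/6 mice with the intervertebral disc as labelled source, in 3 libraries labelled wild type (WT1 to WT3 here) and 3 labelled intervertebral disc degeneration (Deg1 to Deg3). No other allele, agent, age or time is given in the sample labels, which also do not say how degeneration arose. The labels do not say that each library came from its own animal, so the p-values rest on library-to-library spread alone, and that spread may be technical.

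Caveolin-1, the product of Cav1, is the main structural protein of caveolae, the flask-shaped pits of the plasma membrane that are dense in endothelium, fat, fibroblasts and smooth muscle. Caveolin-2, the product of Cav2, joins caveolin-1 in the same oligomers and depends on it to reach the cell surface. Met encodes the receptor tyrosine kinase for hepatocyte growth factor and is best known from epithelia. Cftr encodes a chloride and bicarbonate channel of the apical membrane of epithelial cells, the protein affected in cystic fibrosis.

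The libraries have to be described before the genes. Totals ran from 3119215 to 4009562 counts, so that 3 counts, taken as the floor of detection, equal 0.748 to 0.962 CPM (counts scaled to a library total of 1000000). Across 20132 rows that averaged 1 CPM or more, Deg1 correlated with the wild type libraries at 0.963 to 0.977 and with Deg2 and Deg3 at 0.688 and 0.686 (Pearson's r of log2(CPM + 1); rows are no independent replicates). Markers of heart muscle, of which 7 of 13 could be located, summed to 36209 to 39394 CPM in wild type, 40240 CPM in Deg1, and 40.8 and 39.1 CPM in Deg2 and Deg3. Kidney tubule markers (6 of 10 located) summed to 33.3 to 45.2 CPM in wild type and 49.1 CPM in Deg1. They summed to 10374 and 8252 CPM in Deg2 and Deg3. Of the 6, 3 were above the highest wild type value in each degeneration library, as were 8.49% of all 10913 located loci. In Deg1 these 3 stayed far below Deg2 and Deg3, at 1.89 CPM for Lrp2, 20.2 for Slc12a3 and 20.5 for Egf. Their highest wild type values were 0.559, 19.5 and 17.8 CPM. Of 12 disc and cartilage markers 6 were located. Krt19 had no count over the 156 of its 1855 exon bases that were covered, Acan had at most 0.499 CPM over 1158 of 7469, and Noto at most 0.321 CPM. Chad had 2.80 to 7.69 CPM and Cnmd 1.40 to 3.53 CPM across the 6 libraries. The list's sum, 5.31 to 10.9 CPM in wild type and 136 CPM in Deg2 and Deg3, was in those 2 libraries nearly all Krt8, which is also an epithelial keratin. The libraries are called by their labels only. The tests are given with all 6 libraries and without Deg1.

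All 4 genes could be read under their own names, which is not so for most rows of these tables. The rows of Cav2, Cav1, Met and Cftr consist of 3, 7, 22 and 29 merged exon blocks, and each block starts and ends 1 base before an exon block of the same gene in GENCODE M21 on GRCm38. Between 99.6% and 99.9% of the length of each row fell on exons annotated to that gene. By that annotation Cav2 spans 17281185 to 17289115 and Cav1 spans 17306335 to 17341452, with starts 25.1 kb apart. Met spans 17463800 to 17573980, and Cftr spans 18170687 to 18322768, with its start 889.5 kb from that of Cav2. No exon of another gene lay under the rows of Cav1, Cav2 and Met. The Cftr row shared 129 bases with Gm15592, whose own row held at most 2 counts in any library.

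The 250 bases upstream of the start of Cav1, Cav2 and Cftr are shown because the caveolin genes stood high in the same libraries and Cftr in others. No window is given for Met, which stood high in the same libraries as Cftr. A link between these sequences and the levels was not tested. They are plus-strand GRCm38.p6 sequence from RefSeq, 5′ to 3′, and end 1 base before the GENCODE M21 gene start. Cav1 covers chr6:17306085-17306334 and is the first of 2 entries for that gene, Cav2 covers chr6:17280935-17281184, and Cftr covers chr6:18170437-18170686. Capitals mark matches on either strand, overlaps included, to the GC box GGGCGG, the CCAAT box CCAAT, the TATA box TATAAA, the AP-1 site TGACTCA and the E box CACGTG.
Cav1: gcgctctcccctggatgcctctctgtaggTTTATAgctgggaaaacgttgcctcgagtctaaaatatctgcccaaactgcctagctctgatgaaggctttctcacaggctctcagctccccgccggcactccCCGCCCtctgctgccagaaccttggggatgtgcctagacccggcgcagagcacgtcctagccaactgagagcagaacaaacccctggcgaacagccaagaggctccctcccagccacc
Cav2: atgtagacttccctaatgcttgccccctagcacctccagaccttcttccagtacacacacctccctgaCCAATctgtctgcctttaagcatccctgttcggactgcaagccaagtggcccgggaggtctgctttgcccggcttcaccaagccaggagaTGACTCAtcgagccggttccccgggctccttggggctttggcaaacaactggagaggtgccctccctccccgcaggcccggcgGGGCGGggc
Cftr: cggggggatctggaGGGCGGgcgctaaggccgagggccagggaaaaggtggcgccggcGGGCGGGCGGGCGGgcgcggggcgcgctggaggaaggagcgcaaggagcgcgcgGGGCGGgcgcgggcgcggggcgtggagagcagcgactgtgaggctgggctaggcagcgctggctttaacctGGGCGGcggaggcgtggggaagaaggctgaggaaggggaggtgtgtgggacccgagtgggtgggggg
The windows of Cav1 and Cav2 each hold 10 CpG dinucleotides, more than 62.2% of the 32851 windows of this length in the table, and 1 GC box match. The Cftr window holds 30 CpG dinucleotides, more than 94.1% of windows, and 6 GC box matches. Among all windows, 32.7% hold a GC box match, 33.8% a CCAAT box, 12.4% a TATA box, 4.46% an AP-1 site and 6.02% an E box match. A match describes letters only and is no evidence of binding.

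Cav1 was the most abundant of the 4 genes in the wild type libraries. It stood at 1565, 1050 and 1227 CPM in WT1 to WT3, and at 1008, 149 and 125 CPM in Deg1 to Deg3. Every degeneration library was below every wild type library, as in 8.65% of all rows tested, but Deg1 lay close to WT2, whose 95% Poisson interval of 1016 to 1084 CPM overlapped that of Deg1 at 974 to 1044 CPM. In Deg2 and Deg3 the level was far under that of the other 4 libraries. The group means were 1280 ± 262 CPM for wild type against 427 ± 503 CPM for degeneration (SD, n = 3 each).

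Cav2 stood at 199, 137 and 168 CPM in WT1 to WT3, and at 158, 88.9 and 88.2 CPM in Deg1 to Deg3. The value of Deg1 fell inside the wild type range, so the groups overlapped, while Deg2 and Deg3 were below it. The group means were 168 ± 30.9 CPM and 112 ± 39.9 CPM (SD, n = 3 each).

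Met, the growth factor receptor, had the opposite distribution. It stood at 19.2, 15.9 and 10.9 CPM in WT1 to WT3, and at 8.50, 774 and 777 CPM in Deg1 to Deg3. Deg1 had the lowest value of all 6 libraries, and Deg2 and Deg3 were nearly identical to each other. Relative to Deg1, the level was 91.0-fold higher in Deg2 and 91.5-fold higher in Deg3. The group means, 15.3 ± 4.21 CPM for wild type against 520 ± 443 CPM for degeneration (SD, n = 3 each), describe neither kind of degeneration library.

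Cftr had 0, 1 and 3 counts in WT1 to WT3, which equals 0, 0.280 and 0.904 CPM, and 5, 87 and 85 counts in Deg1 to Deg3, which equals 1.57, 25.2 and 27.3 CPM. The degeneration libraries were all above the wild type ones, as in 11.2% of the rows tested, among which Cftr is not. The 0 counts of WT1 lie under its floor of 3 counts (0.748 CPM) and have a 95% Poisson upper limit of 0.920 CPM. The 95% Poisson intervals, which cover counting error only, were 0.511 to 3.67 CPM in Deg1 and 0.186 to 2.64 CPM in WT3, so the difference between these 2 libraries was not detectable at this depth. In Deg2 the interval was 20.2 to 31.1 CPM and in Deg3 it was 21.8 to 33.7 CPM.

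**Figure D1:**
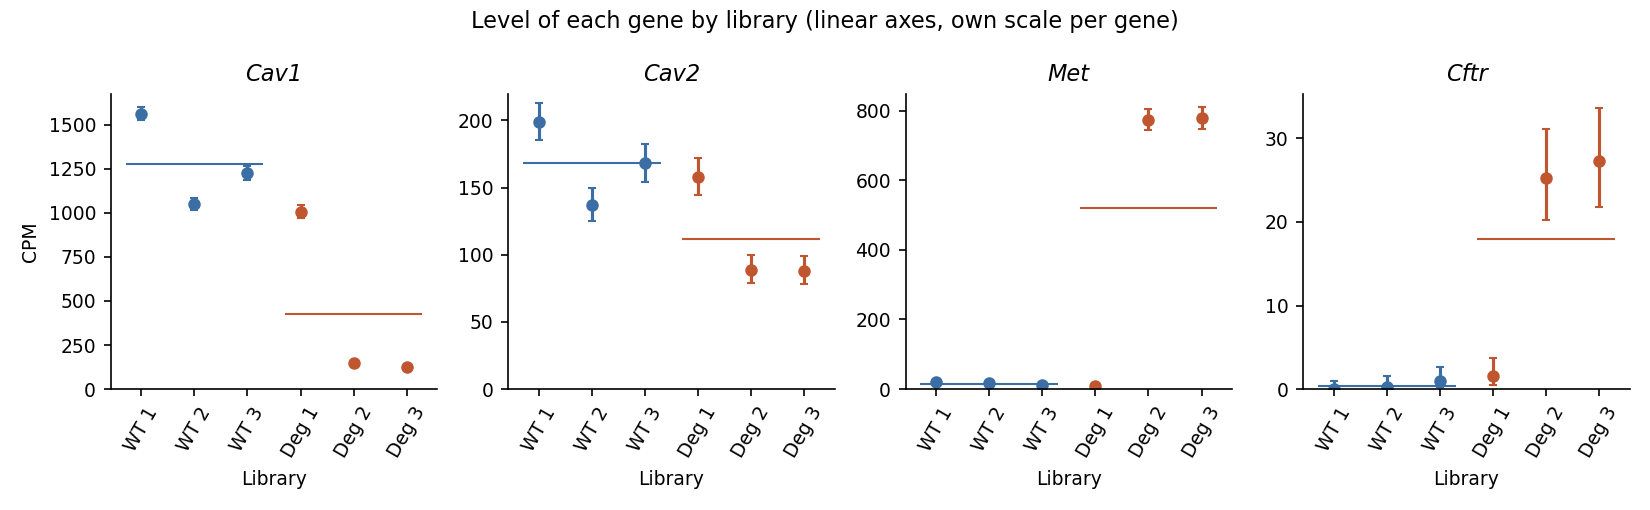
CPM of each gene (linear y axis from 0, own scale per gene) in the wild type (WT, blue) and degeneration (Deg, orange) libraries, with 95% Poisson intervals as bars and group means as horizontal lines. Deg1 sits with or next to the wild type libraries in every panel, and Deg2 and Deg3 sit apart, lower for Cav1 and Cav2 and higher for Met and Cftr.

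None of the 4 genes passed the test with all 6 libraries, nor did any of the 14967 rows tested (0% called). At an unadjusted p under 0.05 stood 17.3% of rows, and Met was among them. With edgeR's quasi-likelihood test the log2 fold change of degeneration against wild type was -1.59 ± 0.96 (SE) for Cav1, with an adjusted p of 0.405, and -0.72 ± 0.39 for Cav2, with an adjusted p of 0.358. For Met it was 4.73 ± 1.37 with an adjusted p of 0.258. Cftr did not meet the count filter, which asks for a minimum count in 3 libraries; with no filter its log2 fold change was 5.09 ± 1.10 and its adjusted p 0.200 in edgeR. DESeq2 called 3.37% of its 13032 rows, 2.74% as higher and 0.629% as lower, and Met was among the higher at the same log2 fold change of 4.73 ± 1.09 and an adjusted p of 0.00393. In DESeq2 the adjusted p was 0.335 for Cav1 and 0.390 for Cav2.

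Without Deg1, the 2 remaining degeneration libraries differed from wild type in all 4 genes. The likeness of Deg1 to wild type in these same values was known, so the adjusted p-values of this fit are no independent support. Cav1 fell by 3.64 ± 0.21 on the log2 scale with an adjusted p of 2.1e-08 (edgeR), and Cav2 fell by 1.34 ± 0.16 with an adjusted p of 1.8e-05. Met rose by 5.23 ± 0.19 with an adjusted p of 5.8e-10, and Cftr rose by 5.62 ± 0.48 with an adjusted p of 8.8e-07. Cftr met the count filter of this fit only through Deg2 and Deg3, where it is high. Its adjusted p is therefore no separate support for the rise. In this fit 50.4% of 17272 rows were called, 24.5% as lower and 25.9% as higher, so that being called does not set these 4 genes apart. In the same 2 libraries the heart muscle and kidney tubule markers stood at the sums given above, and the part of these tissues' RNA in the values of the 4 genes was not tested. In bulk RNA, fewer cells of a type and less RNA per cell cannot be told apart.

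**Figure D2:**
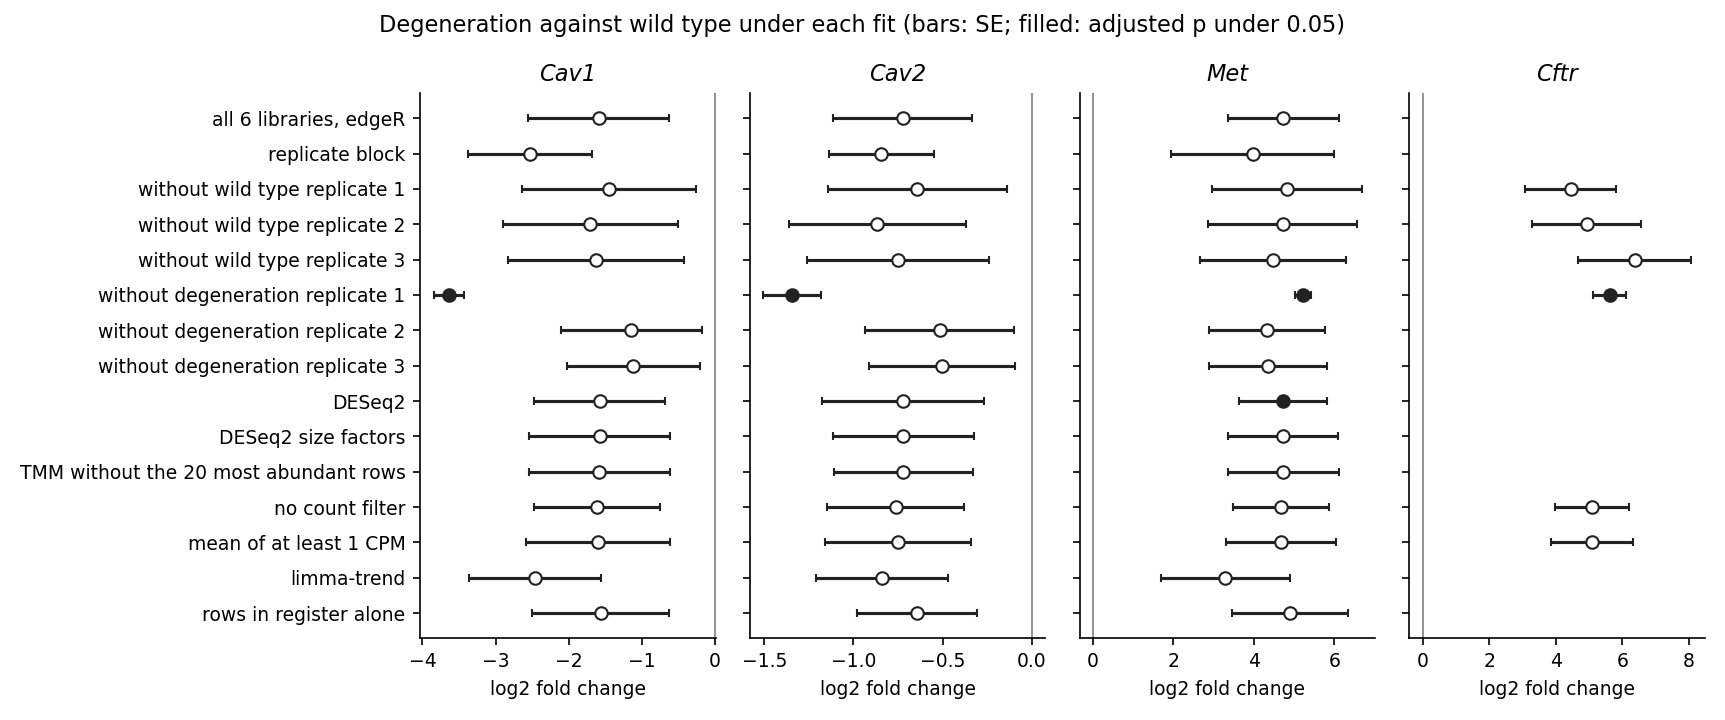
Log2 fold change of degeneration against wild type (x axis, own scale per gene) for each gene under each fit (y axis), with SE as bars, filled where the adjusted p is under 0.05. The direction is the same in every fit drawn; the fit without Deg1 is filled for all 4 genes, and DESeq2 for Met only. Cftr has a value in 6 of the 15 fits.

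The level of Cav1 was further from wild type than that of Cav2 in Deg2 and Deg3. The ratio of Cav1 to Cav2 counts, which is free of library scaling, was 7.86, 7.65 and 7.29 in WT1 to WT3, and 6.39, 1.68 and 1.41 in Deg1 to Deg3. The ratio of every degeneration library was under that of every wild type library. For Deg1 the exact 95% counting interval of 5.81 to 7.04 overlapped that of WT3, which was 6.67 to 7.98. On the log2 scale the ratio was 2.93 ± 0.05 in wild type and 1.31 ± 1.19 in degeneration (SD, n = 3 each). The difference of -1.62 had a two-sided exact permutation p of 0.1, the smallest that 3 against 3 libraries allow. Per kb of row length, Cav1 exceeded Cav2 by 7.61, 7.40 and 7.06 times in WT1 to WT3, by 6.19 times in Deg1, and by 1.63 and 1.37 times in Deg2 and Deg3.

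The order of the genes also differed between libraries. Per kb, the descending order was Cav1, Cav2, Met and Cftr in WT1 to WT3 and Deg1. In Deg2 and Deg3 Met ranked first, at 101 CPM per kb in each, ahead of Cav1 at 43.4 and 36.2, Cav2 at 26.7 and 26.4, and Cftr at 3.25 and 3.51 CPM per kb. In WT1 to WT3 Cav1 stood at 454, 305 and 356 CPM per kb against 2.50, 2.08 and 1.41 for Met. Counted directly, there were 0.0123, 0.0152 and 0.00885 Met counts per Cav1 count in WT1 to WT3, 0.00843 in Deg1, and 5.18 and 6.23 in Deg2 and Deg3.

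**Figure D3:**
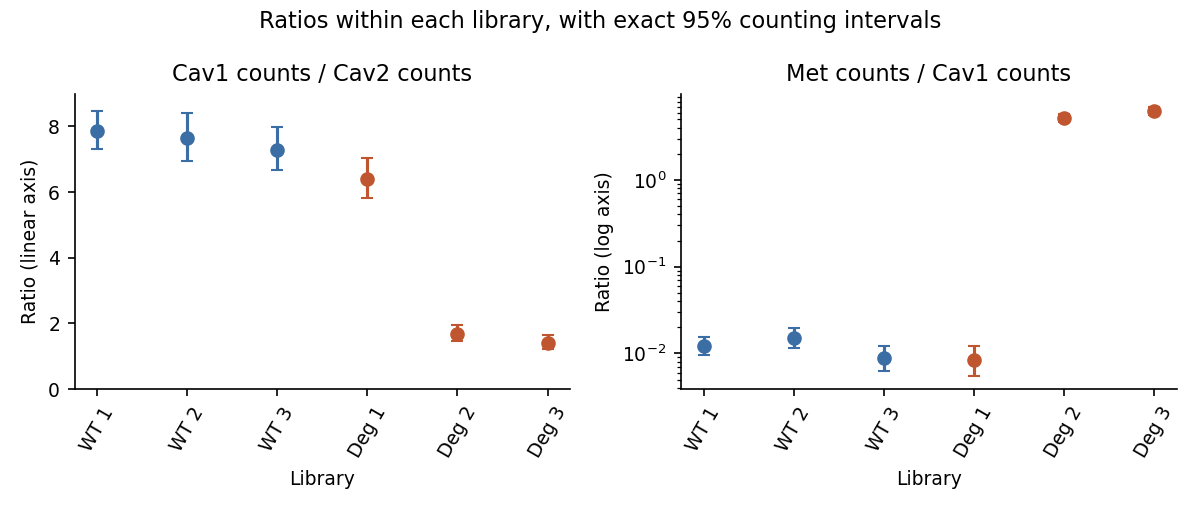
Ratio of counts within each library (x axis), Cav1 over Cav2 on a linear axis and Met over Cav1 on a log axis, with exact 95% counting intervals as bars, wild type (WT) in blue and degeneration (Deg) in orange. Cav1 over Cav2 is 6.39 to 7.86 in 4 libraries and 1.68 and 1.41 in Deg2 and Deg3; Met over Cav1 passes 1 only in those 2.

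Levels in the neighbourhood lay on both sides of wild type. Within 1 Mb of the outer ends of the 4 rows there were 42 rows in register, meaning that at least 90% of their length lay on their own gene's exons, and 13 of them, the 4 genes included, were protein-coding. Of these 42, 18 met the count filter and 0 passed with all 6 libraries in edgeR, where 4 stood at an unadjusted p under 0.05 beside 17.3% of all rows. Without Deg1, 20 were tested, of which 7 rose, 6 fell and 7 did not pass, beside 50.4% of all rows called in that fit, 25.9% as higher and 24.5% as lower. The rows added were Cftr and Gm15594, which met the filter only through Deg2 and Deg3, so that their rise is no separate support. DESeq2, which called 3.37% of all rows, called Tfec (adjusted p = 0.0153) and Cttnbp2 (adjusted p = 0.0282) beside Met. Some of these rows share a locus, so they are not separate observations. Gm15594 and Gm43843, which rose without Deg1, lie within the span of Cttnbp2, and Gm43533, which fell, lies within that of St7.

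Upstream of Cav2, Tfec, a transcription factor of the MiT family, stood at 4.49, 1.96 and 1.81 CPM in WT1 to WT3, and at 1.57, 86.9 and 84.0 CPM in Deg1 to Deg3. Tes, which encodes the focal adhesion protein testin, stood at 25.4, 24.9 and 17.5 CPM, and at 14.5, 75.0 and 64.8 CPM. Both were highest in Deg2 and Deg3, as was Met on the far side of the caveolins. Between Tes and Cav2 lay the lincRNA D830026I12Rik, which like the caveolins was lowest in Deg2 and Deg3. It stood at 15.7, 18.5 and 22.3 CPM in WT1 to WT3, and at 20.2, 2.90 and 4.49 CPM in Deg1 to Deg3. Its log2 fold change without Deg1 was -2.77 ± 0.31 (adjusted p = 1.1e-05, edgeR). Without Deg1 Tfec rose by 4.48 ± 0.27 (adjusted p = 2.8e-08, edgeR) and Tes by 1.20 ± 0.19 (adjusted p = 0.00018, edgeR) on the log2 scale. Gm4876, annotated as antisense, overlaps Tes, and the counts do not use strand.

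Capza2 and St7, which lie between Met and Cftr, had similar CPM in all 6 libraries. Capza2, which encodes a subunit of the actin capping protein, stood at 299, 209 and 262 CPM in WT1 to WT3, and at 325, 269 and 241 CPM in Deg1 to Deg3. The groups overlapped, and the log2 fold change with all 6 libraries was -0.05 ± 0.29 (adjusted p = 0.930, edgeR). St7, known as suppressor of tumorigenicity 7, stood at 69.6, 72.7 and 86.8 CPM, and at 67.7, 68.7 and 68.9 CPM. Its degeneration libraries were all below its wild type ones, if narrowly, as in 8.65% of all rows tested. Without Deg1 both genes were called lower by the scaled test, Capza2 at -0.42 ± 0.16 (adjusted p = 0.0383, edgeR) and St7 at -0.57 ± 0.16 (adjusted p = 0.00916, edgeR). TMM factors, the library scaling of that test, were 0.864 to 0.940 in the 4 other libraries and 1.23 and 1.25 in Deg2 and Deg3 in the fit of all 6. The scaled levels of Deg2 and Deg3 are therefore lower than their CPM. In the fit of rows in register alone the factors of Deg2 and Deg3 were 0.962 and 1.03. Those factors apply to the sum of the rows in register and not to the library total, so they cannot be compared with 1.23 and 1.25.

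Wnt2, a secreted signalling protein, had 1 to 10 counts in each library (0.315 to 2.71 CPM) and was not tested. Beyond Cftr, Cttnbp2, which encodes a cortactin-binding protein, stood at 17.0, 14.0 and 20.2 CPM in WT1 to WT3, and at 13.9, 232 and 199 CPM in Deg1 to Deg3. It rose by 3.24 ± 0.17 on the log2 scale without Deg1 (adjusted p = 1.1e-08, edgeR). Lsm8, an RNA-binding protein of the spliceosome, stood at 38.9, 29.1 and 30.4 CPM, and at 37.2, 45.2 and 45.2 CPM, with a log2 fold change of 0.04 ± 0.17 without Deg1 (adjusted p = 0.873, edgeR).

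**Figure D4:**
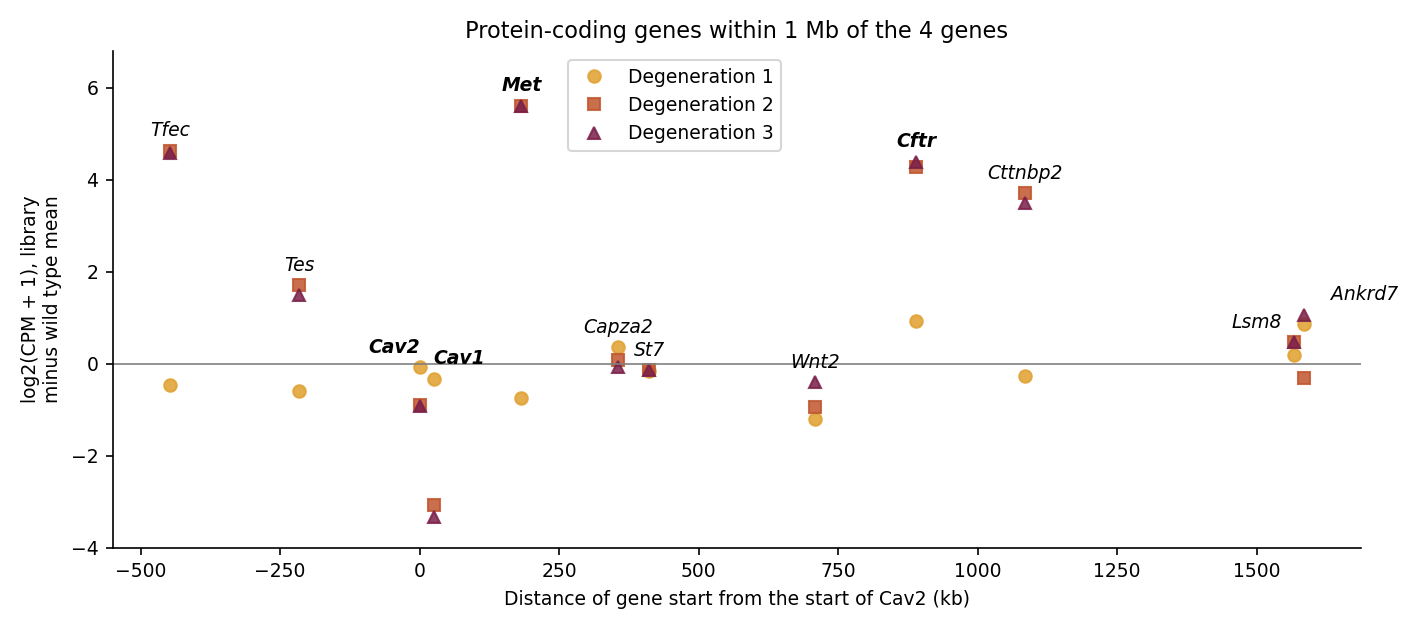
Protein-coding genes within 1 Mb of the 4 genes (in bold) that reach 3 counts in at least 1 library, by distance of their start from that of Cav2 in kb (x axis), with log2(CPM + 1) of each degeneration library minus the wild type mean (y axis). Deg2 and Deg3 lie above 0 at Tfec, Tes, Met, Cftr and Cttnbp2 and below it at Cav2 and Cav1, while Capza2 and St7 between them lie near 0; Deg1 stays within about 1 unit of 0 apart from Wnt2, a gene of few counts.

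Other genes of the caveola were read by position, from rows in register or with at least 100 bases on their GRCm38 exons. No share of the row's length was required of the latter, so part of a row may lie outside exons. Examples of covered exon bases are 165 of 4007 for Ehd4, 209 of 9527 for Stat3, 111 of 3556 for Pdzk1 and all 2054 for Cavin4. The values given here and for the next lists are those of the rows, not of whole genes. Of 12 genes of the caveola coat and neck 6 were located and tested, and 0 passed with all 6 libraries in edgeR (0% of 5434 loci passed). At an unadjusted p under 0.05 stood 0 of these 6, and in the lists described next 2 of 7 caveola cargo genes, 2 of 10 Met signalling genes and 2 of 6 Cftr partners, beside 19.6% of loci. The coat list's median log2 fold change was -0.66, beside a median of 0.00 over all loci. Without Deg1, 4 fell and 0 rose, where 53% of 5969 loci were called, 26.2% as lower, and the list's median was -1.59 beside 0.01 over all loci. Cav3, the muscle caveolin, is not among the located genes.

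Cavin1, the coat protein without which caveolae do not form, stood at 93.0, 94.5 and 82.9 CPM in WT1 to WT3, and at 96.0, 16.2 and 20.8 CPM in Deg1 to Deg3. It fell by 2.69 ± 0.18 on the log2 scale without Deg1 (adjusted p = 6.4e-07, edgeR). Cavin4, the cavin of striated muscle, lay in register on chromosome 4 and stood at 231, 244 and 265 CPM in WT1 to WT3, at 286 CPM in Deg1, and at 0 and 0.321 CPM in Deg2 and Deg3. Deg1 thus held the highest Cavin4 level of the 6 libraries while its Cav1 level was the lowest of the 4 libraries with the high heart muscle sums. Cavin3 had 20.8 to 29.9 CPM across WT1 to WT3 and 22.0, 13.6 and 10.9 CPM in Deg1 to Deg3. Ehd4, an ATPase of the EHD family, fell without Deg1 as well (adjusted p = 2.0e-05, edgeR). Pacsin2, a membrane-bending protein of the caveola neck, had 104 to 136 CPM across WT1 to WT3 and 158, 145 and 125 CPM in Deg1 to Deg3.

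Of 12 genes whose proteins are found in or signal through caveolae, 7 were located and tested. None passed with all 6 libraries, and without Deg1, 2 rose and 5 fell, where 26.8% of loci were called as higher and 26.2% as lower. Their medians were -0.24 and -0.54 in these fits. Cd36, the fatty acid transporter of endothelium, muscle and fat, stood at 589, 367 and 419 CPM in WT1 to WT3, and at 519, 53.9 and 49.1 CPM in Deg1 to Deg3. Slc2a4, the insulin-responsive glucose transporter, stood at 124, 110 and 156 CPM, and at 215, 32.2 and 30.1 CPM. Egfr, the receptor for epidermal growth factor, was high where these were low, at 15.5, 13.7 and 10.6 CPM in WT1 to WT3, and 11.7, 57.1 and 55.8 CPM in Deg1 to Deg3.

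Markers of cell types rich in caveolae were set beside these values. The 6 of 12 endothelial markers located summed to 1163, 1201 and 1020 CPM in WT1 to WT3, and to 750, 416 and 447 CPM in Deg1 to Deg3, and none was at 0. Of these 6, 5 were lower in each degeneration library than in the lowest wild type one, as were 9.39% of the loci tested and 5.49% of those located. The located fibroblast markers (5 of 8) summed to 1007 to 2928 CPM across WT1 to WT3 and 628 to 995 CPM across Deg1 to Deg3. Of these 5, 3 (Col1a1, Col1a2 and Col5a1) were lower without overlap, beside the same 9.39% of loci tested. Dcn had 250, 24.3 and 31.1 CPM in Deg1 to Deg3 against 175 to 259 CPM across WT1 to WT3. Pdgfra had 169, 208 and 282 CPM against 143 to 180 CPM. Smooth muscle and pericyte markers (2 of 7) summed to 123 to 199 CPM and 122 to 137 CPM. Adipocyte markers (2 of 7, Lep and Cidec) did not pass 0.962 CPM in sum in any library. Within the endothelial list Vwf, von Willebrand factor, fell the most without Deg1. It stood at 133, 154 and 159 CPM in WT1 to WT3, and at 91.6, 9.85 and 23.4 CPM in Deg1 to Deg3. Emcn, the member whose groups overlapped, stood at 2.99, 4.47 and 6.93 CPM, and at 5.35, 5.50 and 5.13 CPM. Without Deg1 the log2 fold change was -3.58 for Vwf, -1.02 for Eng and -0.24 for Emcn. The part of any of these cell types in the Cav1 and Cav2 levels was not tested.

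Genes that act with Met lay on both sides of their wild type level. Of 23 genes of hepatocyte growth factor and Met signalling, 10 were located and tested, and 0 passed with all 6 libraries. Without Deg1, 1 rose and 3 fell, a share of the list no larger than the 53% of all loci called, and the medians in both fits were 0.00 and 0.02. Hgf, the ligand, was counted over 497 of its 7186 exon bases and stood at 18.2, 15.9 and 9.95 CPM in WT1 to WT3, and at 10.7, 21.7 and 27.3 CPM in Deg1 to Deg3. Its log2 fold change without Deg1 was 0.32 ± 0.25 (adjusted p = 0.320, edgeR). Spint2, an inhibitor of the proteases that activate the ligand, was the gene that rose, from 17.7, 21.0 and 21.1 CPM to 186 and 238 CPM in Deg2 and Deg3, with 18.6 CPM in Deg1. Those that fell were Cd44, Akt1 and Stat3, a co-receptor, a kinase and a transcription factor downstream of Met. Stat3 stood at 174, 189 and 97.7 CPM in WT1 to WT3, and at 95.7, 66.6 and 80.1 CPM in Deg1 to Deg3.

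Of 22 partners of Cftr and genes of epithelial anion transport, 10 were located, and with all 6 libraries 6 were tested and 0 passed. Without Deg1, 8 were tested, of which 3 rose and 2 fell, where 26.8% of loci were called as higher. Pdzk1 and Slc26a4 had no value with all 6 libraries and met the filter here only through Deg2 and Deg3. That they were called higher is therefore no separate support. Pdzk1, a scaffold of apical transporters, stood at 0.748, 1.12 and 1.21 CPM in WT1 to WT3, and at 1.26, 105 and 78.2 CPM in Deg1 to Deg3. Slc26a4, the anion exchanger pendrin, stood at 1.25, 1.96 and 0.904 CPM, and at 0.630, 151 and 109 CPM. Ezr, which encodes ezrin, a link from apical membrane to actin, stood at 12.5, 10.1 and 13.6 CPM, and at 16.7, 91.3 and 72.5 CPM, without overlap, as in 11.6% of the loci tested with a higher level. These 3 rose, and Kcnq1, a potassium channel subunit, and Slc12a2, a sodium-potassium-chloride cotransporter, fell. The epithelial markers Cdh1 and Krt8 (2 of 5 located) summed to 0.301 to 1.25 CPM in wild type, 0.315 CPM in Deg1, and 655 and 619 CPM in Deg2 and Deg3, and their part in the Met and Cftr levels was not tested.

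**Figure D5:**
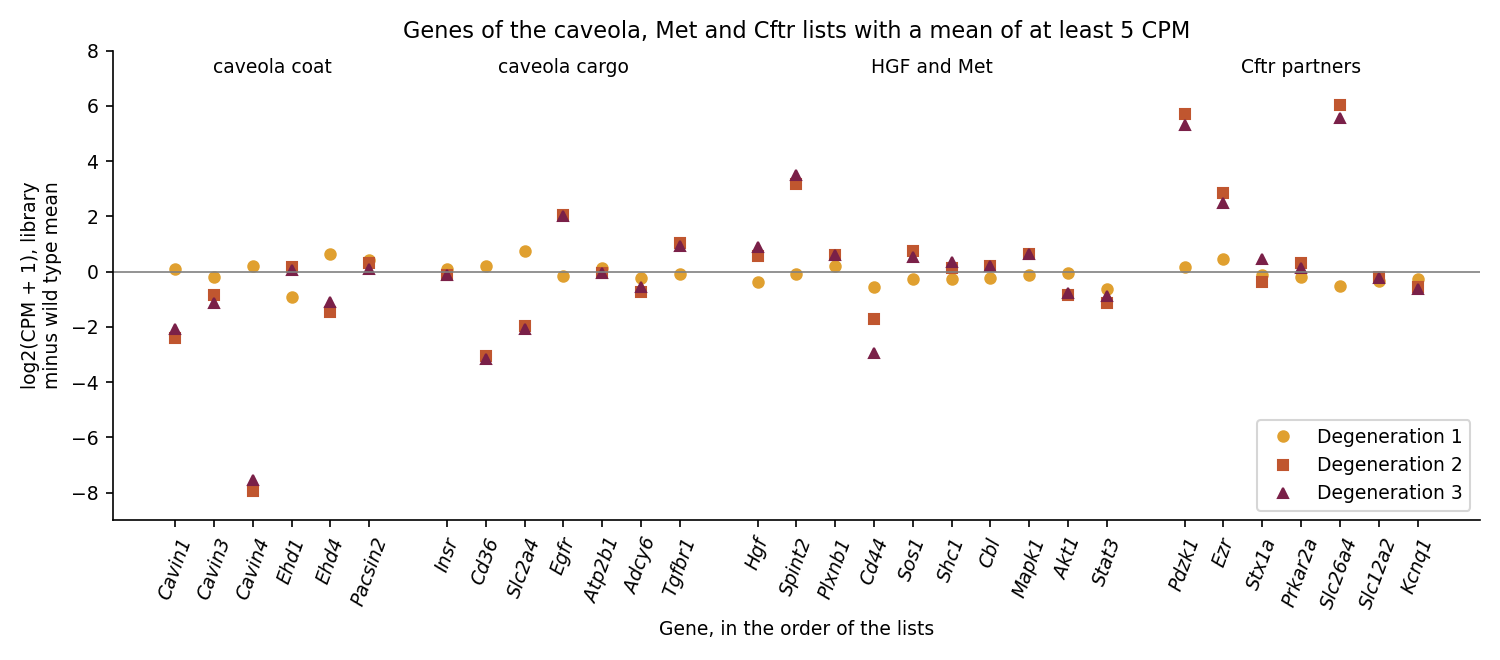
Located genes of the 4 lists with a mean of at least 5 CPM (x axis), with log2(CPM + 1) of each degeneration library minus the wild type mean (y axis). Deg2 and Deg3 are lowest at Cavin4 and highest at Slc26a4 and Pdzk1, most Met signalling genes lie within about 1 unit of 0, and Deg1 lies within about 1 unit of 0 throughout.

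The genes most like each of the 4 were taken from 463 other rows in register with a mean of at least 5 CPM. Likeness is the root mean square difference of log2(CPM + 1) profiles over the 6 libraries, each centred on its own mean. The added 1 shrinks differences at low levels, so likeness depends on the level of a gene as well as on its profile. For Cav1 the nearest were B230362B09Rik at 0.19, Tiaf2 at 0.19, Asb15 at 0.28, Mir1b at 0.30 and Gata6 at 0.34. Asb15 stood at 356, 275 and 383 CPM in WT1 to WT3, and at 396, 34.8 and 40.4 CPM in Deg1 to Deg3. Cav2 ranked 63 from Cav1, at 1.06, and its own nearest rows were Mest, Pon2, Gm49266, Gm49265 and Sem1, at 0.14 to 0.15. The nearest to Met were Stra6l at 0.31, D630039A03Rik at 0.35, Hepacam2 at 0.39, Ccdc180 at 0.45 and Gm20706 at 0.48. Those nearest to Cftr were Gm49188 at 0.29, Mob3b at 0.34, Tspan33 at 0.42, Baat at 0.43 and Gm16485 at 0.51. Met and Cftr were 1.11 apart, with Cftr at rank 22 from Met and Met at rank 33 from Cftr, while Met lay 4.21 from Cav1.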

How the data were processed

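RNA from 6 libraries was used. The deposited counts were made by the authors with featureCounts 2.0.1, as read pairs with both ends mapped over exons summed by gene name, with no strand option, per the file headers. The genome build of the alignment is not given in the sources used here; Bowtie 0.12.2, mm8 and mm9 are named without a role, per the submitters' processing notes. In a deposited series-wide table, 12 value columns carry names found in no sample label; they were not used, so no FPKM is given.

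CPM took the sum of all rows of a library as its total. Row intervals were intersected with GENCODE M21 exons on GRCm38 (bedtools 2.31.1, Python 3.11.15). Rows not in register took the gene holding at least 80% of the exon bases under them and at least 100 bases, and were summed by gene (10913 loci).

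Degeneration was compared with wild type by edgeR 4.0.16 (quasi-likelihood test, TMM, filterByExpr, Benjamini-Hochberg over all rows or loci, threshold 0.05), with the SE taken from the test statistic. DESeq2 1.42.0, its size factors, TMM without the 20 most abundant rows, other filters, limma-trend (limma 3.58.1, prior count 2), a replicate block, rows in register alone and each library left out were the alternatives. The counts of any 2 libraries differed beyond sampling noise (chi-square of at least 3.75 per degree of freedom), so none was taken as a second deposit of another; this does not show separate animals. Intervals and floors cover counting error alone: PCR reads lacking molecular identifiers do not stand for single molecules. Cftr, which fell under the count filter, is given from the same fit with no filter. The members, lists and tests were chosen with earlier results of these data known. Named genes are the 4 genes, rows in register within 1 Mb, list genes, and the 5 nearest rows in profile; among list genes and neighbours, those given with values were picked after their values were seen.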

Additional observations from a re-analysis of the deposited data

How the results depend on the processing

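The direction of the log2 fold change of Cav1, Cav2 and Met was the same in all 15 fits of each, and that of Cftr in its 6 fits. Leaving out each library in turn gave -3.64 to -1.11 for Cav1, -1.34 to -0.50 for Cav2, 4.33 to 5.23 for Met and 4.45 to 6.37 for Cftr, and the fit without degeneration 1 (Deg1) was the only one of these past the threshold. The count of rows called ran from 0 to 8703 of 17272 and that of list genes from 0 to 51 of 67 tested, where 53% of all loci were called, both highest without degeneration 1 and 0 with each other library left out. With all 6 libraries 60 list genes were tested, and those added without degeneration 1 met the filter only through degeneration 2 and 3. DESeq2 called 439 rows and Met (4.73); the cause was not tested. With limma-trend the value was -2.46 for Cav1 and 3.29, the lowest of the 15 fits, for Met; the cause was not tested. Over all fits the adjusted p reached 0.750 for Cav1, 0.737 for Cav2, 0.664 for Met and 0.472 for Cftr. The log2 ratio of Cav1 to Cav2 differed by -2.30 to -1.21 with 1 library left out, where 2 against 3 libraries allow no p under 0.2. Same-numbered libraries share only a number: their deviations from the group means correlated at -0.04, 0.09 and -0.09. With the replicate block 0 rows and 0 list genes were called, the log2 fold changes were -2.53 for Cav1, -0.84 for Cav2 and 3.97 for Met, and the ratio's difference was -1.62 (two-sided exact sign-flip permutation p = 0.25, the smallest for 3 pairs). Cftr could not be tested with the count filter on all 6 libraries, and its value with no filter (5.09) stands for it; the block, DESeq2, its size factors, TMM without the most abundant rows, limma-trend, rows in register alone and leaving out degeneration 2 or 3 gave it no value. The low counts of Cftr in wild type and degeneration 1 limit any statement on its level there. In the fits with 1 library left out, Cftr met the count filter only through degeneration 2 and 3.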
